A study of Mus musculus with 6 samples.

Results

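The genes described here act in the cell division cycle of mouse cells, license DNA for replication, or encode Myc factors. They were taken from a list of 44 gene names, and every row of the deposited table that names a listed gene was used. The table names 43 of them among its 36699 rows, and 42 were tested by the authors, in 44 rows, because Rb1 has 3 rows. Ccne2 was marked as a failed test, and Cdt1 was not analysed here.

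RNA came from embryoid bodies on day 3, made from A2Lox.cre embryonic stem cells with a Flag-Lef1 transgene that doxycycline switches on. Lef1 binds DNA and recruits beta-catenin to Wnt target genes. The plus_Dox group (3 libraries, numbered 1, 2 and 3) received doxycycline from day 2, for 24 h, and the minus_Dox group (3 libraries, numbered 1, 3 and 4) received none. Both groups carry the transgene, and no cells without it are among the samples used here, so effects of Lef1 and of doxycycline cannot be told apart here. All cells had been grown on fibroblasts from FVB mouse embryos, which were removed before suspension culture. Whether the 3 libraries of a group stem from 3 cultures is not in the labels, and the spread behind each test may be technical.

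The authors' deposited table gives 1 FPKM value per gene and group, that is, fragments scaled to transcript length and library size. It holds no values of single libraries, so no standard deviation can be given and sequencing depth is unknown. Dividing a log2 fold by the authors' test statistic gives its standard error (SE), from which the 95% intervals below were made. A gene was called when the q-value in the authors' deposited table was at most 0.05. Lef1, which checks the labels, stood at 7.56 FPKM in minus_Dox and 51.0 FPKM in plus_Dox in the authors' deposited table. Marker rows that the authors' test marked as failed or too deep were left out of the sums that follow, among them Dnmt3b, whose 0 in minus_Dox is not read as absence. Of 9 pluripotency markers, 8 reached 1 FPKM in minus_Dox and 9 in plus_Dox, and their summed level was 1719 and 2879 FPKM. Pou5f1 had the largest part of that sum (820 and 1510 FPKM, not called). Of the 9, 7 had the higher value in plus_Dox and 2 the lower, among them Sox2 (56.2 and 30.9 FPKM, called lower). Of 11 fibroblast markers, 5 reached 1 FPKM in each group, with sums of 21.2 and 26.7 FPKM and none listed at 0. Thy1 made up most of these sums (11.9 and 16.6 FPKM, not called). Of the 10 fibroblast markers tested, 7 had the higher value in plus_Dox and 3 the lower (Dcn, Pdgfra and Pdgfrb). Sums for 9 markers of primitive and visceral endoderm were 149 and 176 FPKM. The endoderm markers were split. In plus_Dox 5 had the higher value, among them Amn (27.2 and 43.8 FPKM). The other 4 had the lower value there, among them Cubn (37.6 and 28.4 FPKM). For 8 primitive streak markers the sums were 14.4 and 85.0 FPKM. The sum of the 4 neural markers named in the table was 23.9 in minus_Dox and 31.7 FPKM in plus_Dox. The part of these cell types in the values below was not tested. In bulk RNA, a change in the share of cells that are cycling cannot be told apart from a change in RNA per cell.

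In a dividing cell, cyclins switch on cyclin-dependent kinases in a fixed order. D cyclins with Cdk4 or Cdk6 act in G1, cyclin E with Cdk2 at entry into S phase, and cyclins A and B with Cdk1 at entry into mitosis. The kinases phosphorylate Rb and its relatives, which releases E2f factors to switch on replication genes. Mouse embryonic stem cells are known for a short G1 phase and for high cyclin E and Cdk2 activity through much of the cycle. Ccnd1 and Myc are textbook targets of Wnt signalling in other tissues.

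Few of the cell cycle genes were called, and most were expressed at like levels in both groups. In the authors' deposited table, calls of higher expression in plus_Dox were made for 2 of the 44 member rows (4.55%), E2f4 and Ccnd2, and 0 were called lower. Over all 18114 tested rows, 8.98% were called higher, 3.22% lower and 12.2% in either direction. An unadjusted p under 0.05 in the authors' test was found in 11 member rows (25.0%), all higher in plus_Dox, beside 23.3% of all tested rows (17.2% higher). The median log2 fold of the member rows was 0.21 and that of all tested rows 0.20. Of the member rows 32 lay above 0 and 12 below (72.7% above), against 65.1% above 0 among all tested rows with a finite fold.

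By the authors' test most of these genes had narrow intervals of the fold. The intervals carry only the spread that this test saw, which may be technical. They do not cover a shift shared by many rows of the table. In 33 of the 44 rows the 95% interval of the fold lay wholly within 2-fold in either direction. In 38 rows the SE was at most 1, from 0.16 to 0.55 in log2 units, with a median of 0.19. The other 6 rows (3 of Rb1, with E2f3, Rbl2 and Cdc25b) had SEs from 1.28 to 2.32, so that changes of several fold in either direction lay within their intervals. Rows of 5 tested genes span at least 2 times the length of the gene in GENCODE and may take in other transcripts: Ccnd1, Ccnd2, Mcm7, Ccna2 and Cdc25b. How reads shared by overlapping genes were divided is not stated.

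**Figure D1:**
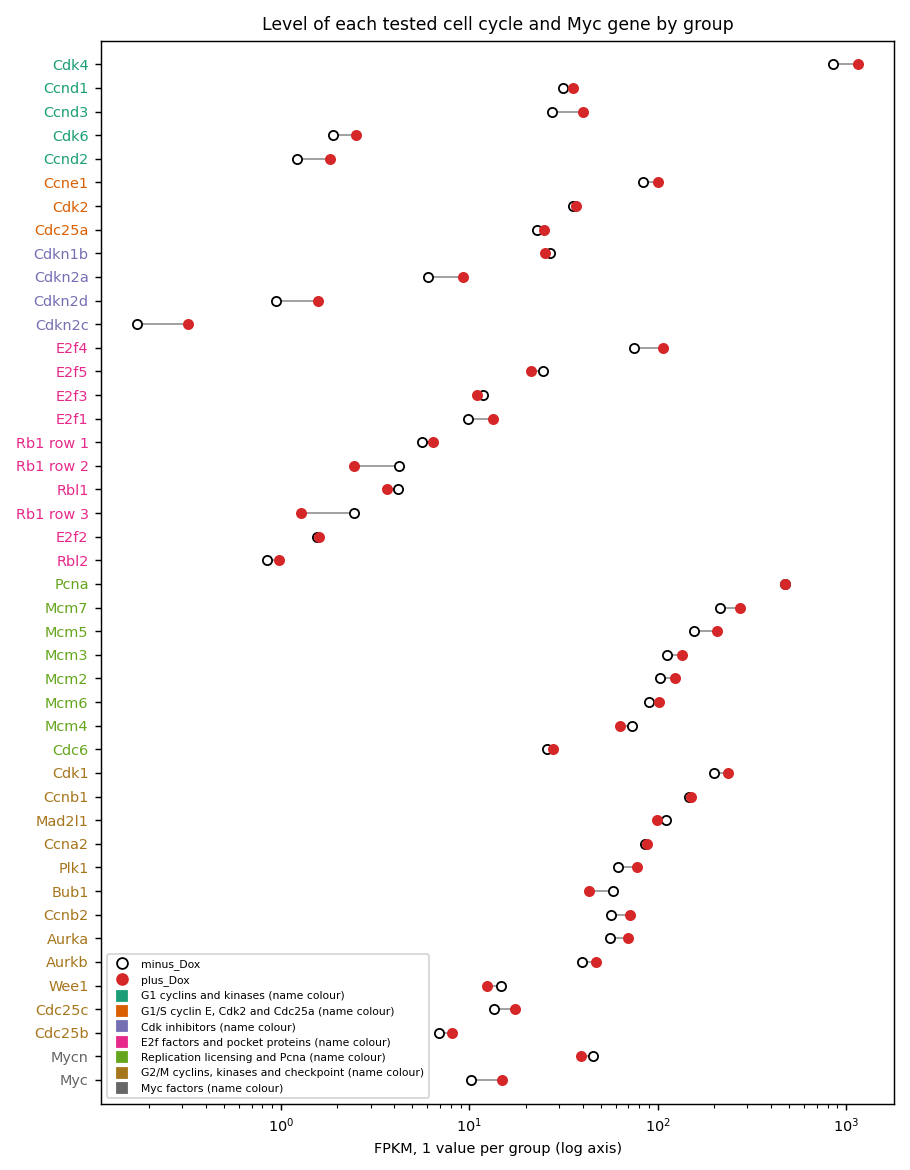
Level of each of the 44 tested member rows in FPKM (log axis), with an open point for minus_Dox, a red point for plus_Dox and the name coloured by role. Cdk4 is the most abundant, at 856 and 1163 FPKM, Cdkn2c the least, at 0.174 and 0.321 FPKM, and most pairs of points lie close together.

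Cells of both groups expressed cell cycle genes at high levels. The median level of the member rows was 29.4 FPKM in minus_Dox and 36.4 FPKM in plus_Dox, beside 3.45 and 3.67 FPKM over all tested rows. In minus_Dox 18 member rows (40.9%) reached 50 FPKM, against 9.06% of all tested rows. In minus_Dox the lowest levels were those of Cdkn2c, Rbl2, Cdkn2d, Ccnd2, E2f2 and Cdk6. The highest in both groups were those of Cdk4, Pcna, Mcm7 and Cdk1.

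Among the G1 genes Ccnd2 rose. Ccnd2 encodes cyclin D2, a partner of Cdk4 and Cdk6. It was listed at 1.22 FPKM in minus_Dox and 1.84 FPKM in plus_Dox in the authors' deposited table (1.51-fold, 95% interval 1.14 to 1.99, log2 fold 0.59, SE 0.21, q = 0.037). Its row lies on chromosome 6 from 127075796 to 127162429 in mm9, a span of 86.6 kb where GENCODE gives the gene 27.0 kb. The call held after removal of a trend on transcript GC content and length (log2 fold 0.69) and was lost after median-ratio scaling (0.39). The other D cyclins were far more abundant. Ccnd1, or cyclin D1, stood at 31.3 and 35.7 FPKM in the authors' deposited table (1.14-fold, interval 0.83 to 1.57, q = 0.76). Ccnd3, or cyclin D3, stood at 27.5 and 40.1 FPKM there (authors' deposited table; 1.46-fold, interval 1.06 to 2.01, q = 0.12). Even with its rise, Ccnd2 remained the least abundant D cyclin: the FPKM of Ccnd1 was 25.7 times that of Ccnd2 in minus_Dox and 19.5 times in plus_Dox.

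The D cyclin kinases did not pass the test. Cdk4 was listed at 856 and 1163 FPKM in the authors' deposited table (1.36-fold, interval 0.97 to 1.90, q = 0.27), and its row overlaps that of Tspan31. Cdk6 was listed at 1.90 and 2.52 FPKM in the authors' deposited table (1.33-fold, interval 0.96 to 1.84, q = 0.31). On the FPKM scale Cdk4 exceeded Cdk6 451 times in minus_Dox and 461 times in plus_Dox. The 5 G1 rows all had the higher value in plus_Dox (median log2 fold 0.44), and 1 of the 5 was called (beside 8.98% of all tested rows called higher). The median was 0.046 after trend removal, which left Ccnd3 at -0.011, and scaling left Ccnd1 at -0.010.

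The genes that act at the G1/S boundary had values within 1.2-fold of each other in the groups. Ccne1, which encodes cyclin E1, had 84.2 and 100.2 FPKM in the authors' deposited table (1.19-fold, interval 0.94 to 1.51). Its kinase gene Cdk2 had 35.4 and 37.1 FPKM in the authors' deposited table (1.05-fold, interval 0.84 to 1.31). For Cdc25a, whose phosphatase removes inhibitory phosphates from Cdk2, the authors' deposited table gives 23.0 and 24.9 FPKM (1.08-fold, interval 0.87 to 1.35). None of the 3 was called, and the upper ends of their intervals reached at most 1.51-fold. Ccne2 was listed at 8.57 and 7.70 FPKM in the authors' deposited table, without a test.

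Among the 4 inhibitor members Cdkn1b was the most abundant, and Cdkn2c and Cdkn2d were scarce. Cdkn1b, which encodes p27, had 26.7 and 25.1 FPKM in the authors' deposited table (0.94-fold, interval 0.73 to 1.21). The Ink4 genes had higher values in plus_Dox without passing. Cdkn2a, whose locus encodes p16 and the p53 activator Arf, was at 6.03 and 9.31 FPKM in the authors' deposited table (1.54-fold, interval 1.11 to 2.15, q = 0.073). Cdkn2d, which encodes p19Ink4d, was at 0.947 and 1.57 FPKM in the authors' deposited table (1.66-fold, interval 1.12 to 2.46, q = 0.078). Cdkn2c, which encodes p18, was at 0.174 and 0.321 FPKM in the authors' deposited table (1.85-fold, interval 0.88 to 3.88, q = 0.34). The 4 inhibitor rows had a median log2 fold of 0.68, the highest of the 7 role groups, and 0 of them were called. After removal of the GC and length trend that median was 0.16, with Cdkn2a at -0.10; the median GC content of the 4 transcripts was 56.9%.

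E2f4 was the member with the smallest q-value. It encodes an E2f factor that works mainly as a repressor, with the pocket proteins p107 and p130. The authors' deposited table lists E2f4 at 75.1 FPKM in minus_Dox and 107.4 FPKM in plus_Dox (1.43-fold, interval 1.15 to 1.77, log2 fold 0.52, SE 0.16, q = 0.014). Its row lies on chromosome 8 from 107821562 to 107829269 in mm9 and spans the length of the annotated gene (7.71 kb). After removal of the GC and length trend its log2 fold was 0.0055, and the call was lost there and after scaling. In both groups E2f4 was the most abundant of the 5 E2f genes.

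The activator E2f genes and E2f5 did not pass. E2f1 was at 9.88 and 13.4 FPKM in the authors' deposited table (1.36-fold, interval 1.04 to 1.78, q = 0.13). E2f2 was at 1.56 and 1.60 FPKM in the authors' deposited table (1.02-fold, interval 0.75 to 1.40). For E2f3 the authors' deposited table lists 11.8 and 11.0 FPKM, with an interval too wide to limit a change (0.13 to 6.91). E2f5, a repressor like E2f4, was at 24.7 and 21.3 FPKM in the authors' deposited table (0.86-fold, interval 0.68 to 1.09). So the FPKM ratio of E2f4 to E2f1 was 7.61 in minus_Dox and 7.99 in plus_Dox.

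Pocket protein genes were poorly resolved. The 3 Rb1 rows share 1 span on chromosome 14, from 73522843 to 73725629 in mm9, which also covers Lpar6 and Rcbtb2. They were listed at 2.45 and 1.28, 4.23 and 2.44, and 5.65 and 6.41 FPKM in the authors' deposited table. The rows thus disagree in direction, and none of the intervals limits a change to within 4-fold. Rbl1, which encodes p107, was at 4.19 and 3.65 FPKM in the authors' deposited table (0.87-fold, interval 0.63 to 1.20). Rbl2, which encodes p130, was at 0.850 and 0.979 FPKM in the authors' deposited table, with an SE of 2.32.

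**Figure D2:**
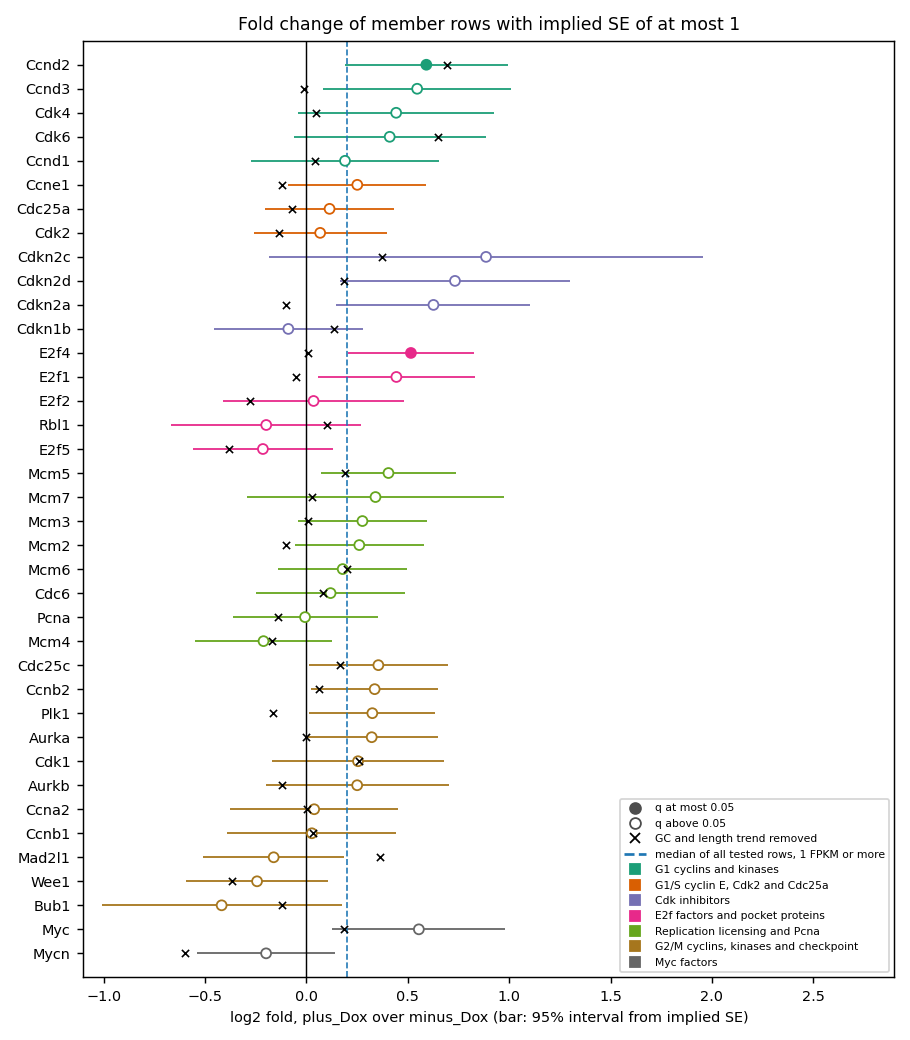
Log2 fold of plus_Dox over minus_Dox (x axis) for the 38 member rows with an SE of at most 1, with 95% intervals, filled where q was at most 0.05 and coloured by role; crosses give the fold after removal of the GC and length trend, and the dashed line the median of all tested rows with at least 1 FPKM (0.20). E2f4 and Ccnd2 are the filled points, and the cross of E2f4 lies at 0 while that of Ccnd2 stays at 0.69.

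Replication licensing loads the Mcm2 to Mcm7 helicase ring onto origins with the help of Cdc6, and Pcna is the sliding clamp of the polymerases. None of the 8 tested rows was called. Promoter sequences from RefSeq (GRCm38.p6, 250 bases before to 50 after the start) were found for 31 of the 42 tested members, in 37 entries. Promoter counts here are of entries and not of genes, so that a gene such as Mcm7 counts with each of its entries. An E2F motif (TTCGCGC or TTGGCGC or TTCCCGC, either strand) occurred in 6 of 8 licensing entries, in 16 of the 37 member entries (43.2%) and in 8.07% of the 32851 entries of the whole table. The Mcm5 promoter is shown because it holds 3 of these matches, of which 2 overlap. The 250 bases upstream of its start (chr8:75109259-75109508, plus strand, GRCm38.p6) have the matches in capitals.
Mcm5: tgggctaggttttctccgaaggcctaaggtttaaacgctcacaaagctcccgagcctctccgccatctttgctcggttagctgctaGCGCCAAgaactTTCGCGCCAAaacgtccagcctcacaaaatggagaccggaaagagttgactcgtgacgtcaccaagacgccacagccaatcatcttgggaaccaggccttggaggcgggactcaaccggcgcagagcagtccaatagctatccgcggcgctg

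Mcm5 had the largest fold of the ring genes, at 155 and 206 FPKM in the authors' deposited table (1.32-fold, interval 1.05 to 1.67, q = 0.11). Mcm7 was at 215 and 272 FPKM in the authors' deposited table (1.27-fold, interval 0.82 to 1.96), and its row overlaps those of Ap4m1, Cops6 and Taf6. Mcm3 was at 112 and 136 FPKM in the authors' deposited table (1.21-fold, interval 0.97 to 1.51). These 3 had the higher value in plus_Dox, and none passed.

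Mcm2 was at 103 and 123 FPKM in the authors' deposited table (1.20-fold, interval 0.96 to 1.49). Mcm6 was at 90.3 and 102.2 FPKM in the authors' deposited table (1.13-fold, interval 0.91 to 1.41). Mcm4 alone of the ring genes had the lower value in plus_Dox, at 72.9 and 63.0 FPKM in the authors' deposited table (0.86-fold, interval 0.68 to 1.09). The ring subunits act in equal numbers, and their FPKM values differed by 2.95 times from lowest to highest in minus_Dox and by 4.33 times in plus_Dox.

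Pcna, at 475 and 473 FPKM in the authors' deposited table, was the member with the fold closest to 1 (interval 0.78 to 1.27). Cdc6, the licensing loader, was at 25.8 and 28.0 FPKM in the authors' deposited table (1.09-fold, interval 0.84 to 1.40). The median log2 fold of the 8 licensing rows, 0.22, was near that of all tested rows.

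Of the 12 rows of G2 and mitotic genes 0 were called. Many mitotic promoters carry CCAAT boxes, bound by NF-Y, and a CHR element (TTTGAA), bound by the DREAM and MuvB complexes. On either strand CCAAT occurred in 7 of 8 mitotic promoter entries, in 7 of 8 licensing entries, in 64.9% of the 37 member entries and in 37.4% of all entries. TTTGAA occurred in 4 of 8 mitotic entries, in 24.3% of the member entries and in 17.9% of all entries. Cdk1 and Ccnb2 are shown because they hold several of these motifs, in capitals (ATTGG is CCAAT on the other strand). The upstream 250 bases are chr10:69352913-69353162 for Cdk1 and chr9:70421555-70421804 for Ccnb2, both on the minus strand of GRCm38.p6.
Cdk1: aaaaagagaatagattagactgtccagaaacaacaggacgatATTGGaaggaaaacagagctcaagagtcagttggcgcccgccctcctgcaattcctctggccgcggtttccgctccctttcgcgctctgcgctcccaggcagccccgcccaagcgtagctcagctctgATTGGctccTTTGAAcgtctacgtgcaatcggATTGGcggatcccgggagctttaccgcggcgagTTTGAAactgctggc
Ccnb2: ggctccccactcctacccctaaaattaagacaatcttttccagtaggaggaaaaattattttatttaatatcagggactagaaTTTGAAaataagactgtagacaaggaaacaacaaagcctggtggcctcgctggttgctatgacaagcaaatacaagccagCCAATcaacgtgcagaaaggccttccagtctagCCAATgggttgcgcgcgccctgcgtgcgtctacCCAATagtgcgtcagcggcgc

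The mitotic kinase Cdk1 was at 198 and 237 FPKM in the authors' deposited table (1.19-fold, interval 0.89 to 1.60). Its cyclin partner Ccnb2 was at 56.5 and 71.4 FPKM in the authors' deposited table (1.26-fold, interval 1.02 to 1.57, q = 0.17). Ccnb1, the other B cyclin, was at 147 and 149.8 FPKM in the authors' deposited table (1.02-fold, interval 0.76 to 1.36). Both B cyclins thus kept their order, with Ccnb1 at 2.60 times the FPKM of Ccnb2 in minus_Dox and 2.10 times in plus_Dox. Ccna2, the S phase and G2 cyclin, was at 86.1 and 88.4 FPKM in the authors' deposited table (1.03-fold, interval 0.77 to 1.37).

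Regulators of Cdk1 had values on both sides of 1. Cdc25c, a phosphatase that activates Cdk1, was at 13.6 and 17.4 FPKM in the authors' deposited table (1.28-fold, interval 1.01 to 1.62, q = 0.19). The opposing kinase Wee1 was at 14.7 and 12.5 FPKM in the authors' deposited table (0.84-fold, interval 0.66 to 1.08). For Cdc25b the authors' deposited table lists 6.92 and 8.09 FPKM with an SE of 1.36, and its row also covers Cenpb. None of the 3 passed.

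The polo and Aurora kinases had like folds. Plk1 was at 61.8 and 77.4 FPKM (1.25-fold, interval 1.01 to 1.55, q = 0.19) in the authors' deposited table. Aurka, which acts at spindle poles, was at 55.8 and 69.7 FPKM in the authors' deposited table (1.25-fold, interval 1.00 to 1.57). Aurkb, the kinase of the chromosomal passenger complex, was at 39.6 and 47.1 FPKM in the authors' deposited table (1.19-fold, interval 0.87 to 1.63). The spindle checkpoint members Bub1 and Mad2l1 had the lower value in plus_Dox. Bub1 was at 57.7 and 43.2 FPKM in the authors' deposited table (0.75-fold, interval 0.50 to 1.13, q = 0.46), and Mad2l1 was at 111 and 99.5 FPKM (0.89-fold, interval 0.70 to 1.14). Neither was called, and after trend removal Bub1 stood at -0.12 and Mad2l1 at 0.36. The transcript used for Mad2l1 in the trend has 7557 nt, more than the 5.645 kb that its row spans. Its GC content and adjusted fold may thus not belong to the transcript that was measured.

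Myc and Mycn encode closely related factors that bind E-boxes with Max and promote growth and proliferation. In minus_Dox Mycn was the more abundant. Myc was at 10.2 FPKM in minus_Dox and 15.0 FPKM in plus_Dox in the authors' deposited table (1.47-fold, interval 1.09 to 1.97, log2 fold 0.55, SE 0.22, q = 0.076). Mycn was at 45.3 and 39.4 FPKM in the authors' deposited table (0.87-fold, interval 0.69 to 1.10, log2 fold -0.20, SE 0.17, q = 0.58). The ratio of Mycn to Myc on the FPKM scale was 4.43 in minus_Dox and 2.63 in plus_Dox. Neither passed, and the upper end of the Mycn interval just overlaps the lower end of the Myc interval. The rows lie on chromosome 15 from 61816945 to 61821929 (Myc) and on chromosome 12 from 12942901 to 12948720 (Mycn) in mm9.

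The Mycn promoter is shown because it is 1 of 4 member entries (of 37, 10.8%) with a Tcf/Lef motif (CTTTGAA or CTTTGAT, either strand), which occurs in 8.65% of all entries. The others belong to Aurka, Cdk1 and Cdk4. CTTTGAA contains the CHR letters TTTGAA, so these matches can count for both. In capitals are TTCAAAG, the Tcf/Lef motif on the other strand, and 3 E2F matches, 2 of them overlapping (chr12:12941837-12942086, minus strand, GRCm38.p6).
Mycn: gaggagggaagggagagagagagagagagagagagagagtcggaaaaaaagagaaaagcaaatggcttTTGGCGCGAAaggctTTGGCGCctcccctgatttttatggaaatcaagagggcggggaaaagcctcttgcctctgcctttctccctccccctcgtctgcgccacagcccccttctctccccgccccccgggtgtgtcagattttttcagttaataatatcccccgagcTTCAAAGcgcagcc
The E-box CACGTG occurred in 4 of the 37 member entries (10.8%) and in 7.15% of all entries. A match to these letters is a description and not a measured binding site.

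Fold changes of the cell cycle genes went with the base composition of their transcripts. Across the 38 member rows with an SE of at most 1, the log2 fold and transcript GC content had a Spearman coefficient of 0.62 and a Pearson coefficient of 0.67. Over 11596 tested rows with at least 1 FPKM the Spearman coefficient was 0.65. These genes share the same 6 libraries and are not independent replicates, so no p is given. Of the 20 members with a GC content of at least 50%, 19 lay above 0, with a median log2 fold of 0.33 beside 0.42 for the 6022 tested rows in that range. Of the 13 members between 45% and 50%, 9 lay above 0 (median 0.12, against 0.069 for 2993 rows). Of the 5 members below 45%, 1 lay above 0 (median -0.16, against -0.25 for 2581 rows). The checkpoint genes Bub1 (41.0%) and Mad2l1 (40.1%) were in the lowest range and Plk1 (56.0%), E2f4 (56.1%) and Cdkn2a (60.2%) in the highest. The Mad2l1 value is that of a transcript longer than its row.

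**Figure D3:**
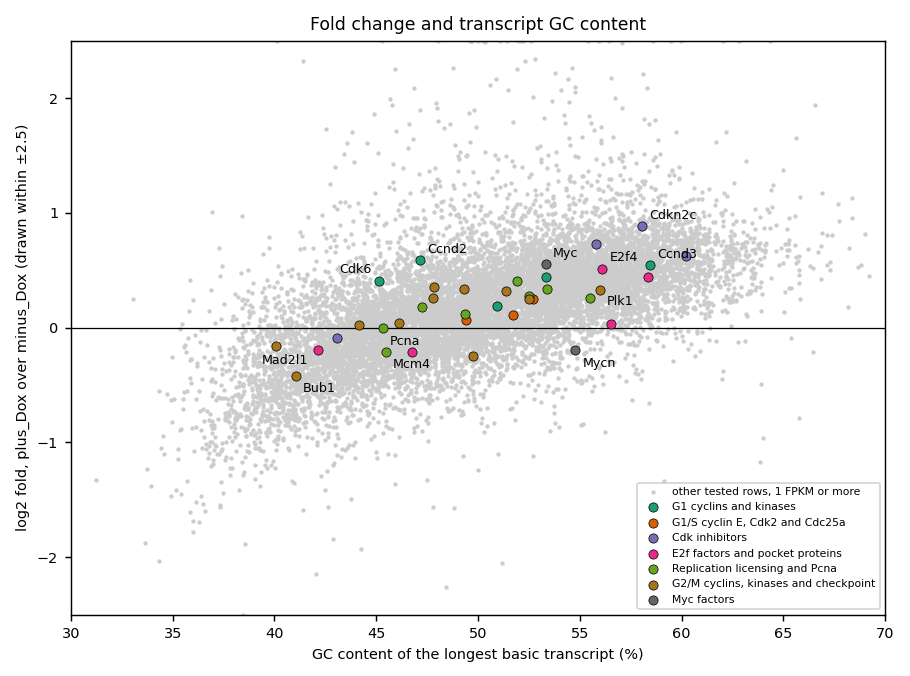
Log2 fold (y axis) against GC content of the longest basic GENCODE transcript in percent (x axis) for the 38 member rows with an SE of at most 1 (coloured by role) and for other tested rows with at least 1 FPKM (grey). The members run along the grey cloud, with Ccnd2 and Cdk6 on its upper side below 50% GC and Mycn on its lower side.

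When a smooth trend on GC content and transcript length was removed over all tested rows, 2 members were called, and they were not the same pair. Ccnd2 stayed higher in plus_Dox, with a log2 fold of 0.69 (q = 0.039, Benjamini-Hochberg over all fitted rows). Mycn was lower, with a log2 fold of -0.60 (q = 0.033, from 0.58 in the authors' deposited table). Over all 16658 fitted rows 1.26% were called higher, 0.979% lower and 2.24% in either direction. E2f4 went to 0.0055 and was no longer called. Myc went to 0.18 (q = 1.00). Its transcript resembles that of Mycn in GC content (53.3% and 54.8%) and length (2338 and 2674 nt). The removal lowered both log2 folds, from 0.55 to 0.18 for Myc and from -0.20 to -0.60 for Mycn. Of the 38 rows with an SE of at most 1, 28 lay within 0.2 of 0 after the removal, where 13 had done so before. With the trend fitted to the 11596 rows of at least 1 FPKM, a setting added after the data had been seen, the same 2 members were called, beside 1.62% of rows higher, 1.3% lower and 2.92% in either direction.

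A second scaling gave no call among the member rows. The median log2 fold of the 12240 tested rows with at least 1 FPKM was 0.20, and when it was subtracted, 0 member rows were called in either direction, beside 9.56% of all rows (3.47% higher, 6.1% lower). E2f4 then had a log2 fold of 0.32 (q = 0.23) and Ccnd2 one of 0.39 (q = 0.27).

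Other genes of the cycle and of the Myc network were followed in 10 lists of 178 genes, none of them members. Of these, 165 were tested by the authors, of which 17 rose (beside 8.98% of all tested rows), 2 fell (beside 3.22%) and 146 did not pass, in the authors' deposited table. After median-ratio scaling the balance turned, with 2 called higher (Pold2 and Cdkn1a, beside 3.47% of all rows) and 9 lower (Kif18a, Kif11, Rad21, Skp2, Ccng1, Lin54, Eif4e, Atr and Brca2, beside 6.1%). Their median log2 fold was 0.074, below the 0.20 of all tested rows, and their median GC content was 47.0%. Of the 19 calls, 18 had a value after trend removal, and 0 of these passed there.

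Replication genes beyond the licensing factors held 5 of the rises. Among 24 genes of polymerases, clamp loader, RPA and nucleotide supply (median log2 fold 0.18), the authors' deposited table shows rises of Pold2, a subunit of polymerase delta (52.5 to 94.9 FPKM, log2 fold 0.85, SE 0.21, q = 0.0013), and Lig1, the replicative DNA ligase (84.6 to 143.5 FPKM, log2 fold 0.76, SE 0.22, q = 0.0085). The others were Tk1, or thymidine kinase (log2 fold 0.68), the clamp loader gene Rfc2 (0.54) and the primase partner Pola2 (0.46) in the authors' deposited table. These 5 are 20.8% of the list, beside 8.98% of all tested rows called higher. With the trend removed none passed: Rfc2 stood at 0.48 (q = 0.087), Lig1 at 0.46, Pold2 at 0.26, Tk1 at 0.14 and Pola2 at 0.041. None of 17 genes of origin recognition and helicase activation was called (median log2 fold 0.062). By the mean of both groups the 2 most abundant of these were Gmnn, which encodes the licensing inhibitor geminin (122 and 158 FPKM in the authors' deposited table), and Dbf4, the activator of the Cdc7 kinase (69.3 and 60.8 FPKM). In plus_Dox alone Orc6 (58.3 and 71.1 FPKM in the authors' deposited table) lay above Dbf4.

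Of 14 spindle checkpoint and kinetochore genes 3 rose (21.4%, beside 8.98% of all tested rows) in the authors' deposited table. They were Mad1l1 (log2 fold 0.64), Birc5, which encodes survivin (0.57, from 125 to 186 FPKM), and Spc24 (0.48). The list median was 0.14. After trend removal Birc5 was at 0.52 (q = 0.097), Mad1l1 at 0.17 and Spc24 at 0.077, and none passed. Of 23 genes of mitotic kinesins, condensin, cohesin and cytokinesis 1 fell, the kinesin gene Kif18a (16.2 to 9.66 FPKM, log2 fold -0.75 with an SE of 0.19, q = 0.0018 in the authors' deposited table), whose transcript has a GC content of 38.3%. Kif18a was at -0.25 after trend removal (q = 0.96), while after scaling Kif18a (q = 3.6e-05), the cohesin gene Rad21 (q = 0.0034) and the kinesin gene Kif11 (q = 0.037) were all called lower. Among 20 genes of the anaphase-promoting complex and SCF ligases 1 rose, Anapc11 (log2 fold 0.63, q = 0.0061 in the authors' deposited table, and 0.36 with the trend removed). The medians of these last lists were 0.018 and 0.13. Over all tested rows 8.98% were called higher and 3.22% lower, and after scaling 6.1% of all rows were called lower.

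Of 22 other cyclins, kinases and inhibitors (median log2 fold 0.12) 4 rose (18.2%, beside 8.98% of all tested rows) in the authors' deposited table. Cdkn1a, which encodes p21, went from 11.7 to 20.2 FPKM (a log2 fold of 0.78 with an SE of 0.19, q = 0.00099) in the authors' deposited table. Cdkn1c, which encodes p57, went from 7.02 to 11.5 FPKM (a log2 fold of 0.71 with an SE of 0.19, q = 0.0046) in the authors' deposited table. Pkmyt1, a kinase that inhibits Cdk1, had a log2 fold of 0.73 and the kinase gene Cdk5 one of 0.57 in the authors' deposited table. Other inhibitors and repressors of the list were not called, with log2 folds in the authors' deposited table of 0.47 for Cdkn2b, 0.40 for Cdkn3, 0.0010 for E2f7 and -0.31 for E2f8. With the trend removed, their folds were 0.34 for Cdkn1a, 0.12 for Cdkn1c, 0.14 for Pkmyt1 and 0.17 for Cdk5, and none passed.

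Among 11 tested genes of the Myc network 1 rose (9.09%, beside 8.98% of all tested rows), Mycl1, the L-Myc gene (13.3 to 21.8 FPKM, log2 fold 0.71 with an SE of 0.20, q = 0.0080 in the authors' deposited table), which stood at 0.35 after trend removal. Of 15 tested targets of Myc 3 rose (20%, beside 8.98% of all tested rows) in the authors' deposited table. They were Srm, which encodes spermidine synthase (log2 fold 0.69), the nucleolar gene Nolc1 (0.54), and a joined row of Nme1, Nme2 and Gm20390 (0.61). With the trend removed Nolc1 was at 0.36 and Srm at 0.045, and neither passed. The list medians were 0.15 and 0.17. None of 8 genes of DREAM, MuvB and Foxm1 was called (median -0.13), the most abundant being Rbbp4 (276 and 244 FPKM) and Mybl2 (27.4 and 35.2 FPKM) in the authors' deposited table. Of 11 DNA damage checkpoint genes (median -0.14) 1 fell, beside 3.22% of all tested rows. It was Brca2, at 3.93 and 2.81 FPKM (log2 fold -0.48 with an SE of 0.17, q = 0.048 in the authors' deposited table), and its fold was -0.093 after trend removal.

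**Figure D4:**
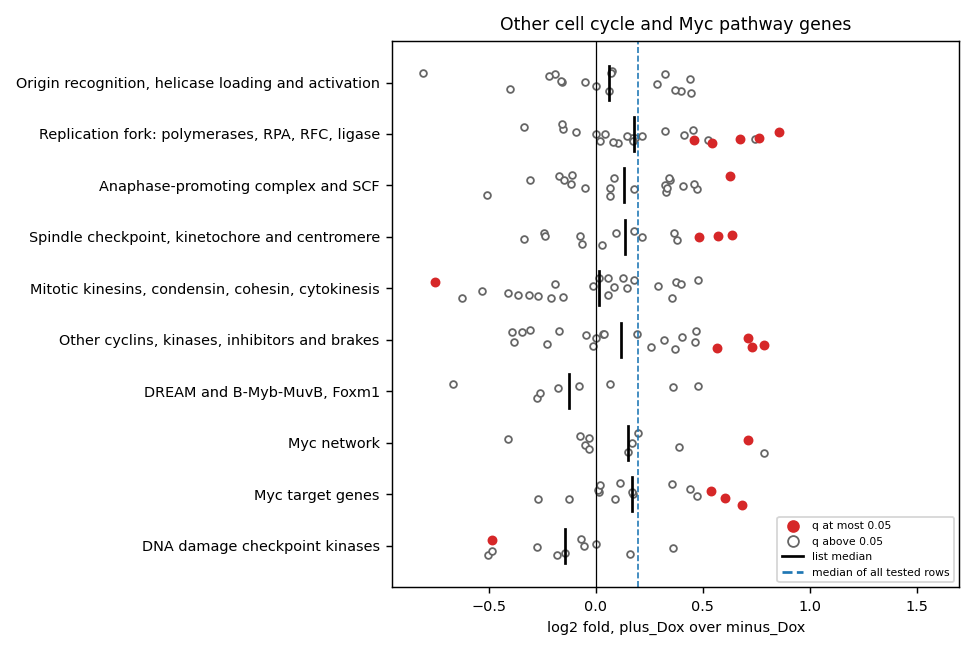
Log2 fold of plus_Dox over minus_Dox (x axis) for the tested genes of 10 further lists (rows), red where q was at most 0.05; black ticks are list medians and the dashed line the median of all tested rows with at least 1 FPKM (0.20). The list medians run from -0.14 to 0.18, all below the dashed line, and 17 red points lie above 0 and 2 below.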

How the data were processed

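Per the submitters' processing notes, the reads of 6 libraries were handled with TopHat2 2.0.8, Bowtie, Picard, Cufflinks 2.0.2 and Cuffdiff on mm9, with no role given for each tool. Which gene annotation they used is not given here. Per the file headers, the authors deposited an FPKM value per group, a log2 fold, a test statistic (a score without a fixed range), and a p-value and q-value per row. The deposited p-values match a normal distribution of the statistic, 2-sided, within 3e-06, and the q-values match a Benjamini-Hochberg adjustment over the tested rows within 2e-06. No model could be fitted, as the table has 0 columns of single libraries. The authors' Cuffdiff test was therefore used, at q of at most 0.05, and no test of the list was made.

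The SE was taken as the absolute ratio of log2 fold to statistic. For the trend removal, log2 folds of 16658 rows were fitted by least squares on cubic splines (6 knots each) of GC content and log2 length of the longest basic transcript in GENCODE vM21 (GRCm38), found for 92.5% of tested rows and all 44 member rows, with scikit-learn 1.9.0. The residual was divided by the SE, and normal p-values were adjusted over all fitted rows. On simulated data of 11033 genes this recovered 1.5% of 200 changes of 0.5 in log2, 77.0% of changes of 1.0 and 95.5% of changes of 2.0. The simulation used a linear trend, normal noise of the size of the SE, and only rows with an SE below 1 and at least 1 FPKM. Recovery in the fit of 16658 rows, which had no such limits, may differ. Alternatives were other q thresholds, a minimum fold or FPKM, median-ratio scaling (the median log2 fold of rows with at least 1 FPKM subtracted), pseudocounts of 1 and 0.1, and a trend fitted to rows with at least 1 FPKM. Named genes are all members and, per further list, at most 5 calls of largest fold (1 FPKM or more), or the 2 most abundant genes of a list with 0 calls. The members and lists were chosen with earlier results of these data known.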

Additional observations from a re-analysis of the deposited data

How the results depend on the processing

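No paired analysis was possible because the table holds group values only, and for the same reason no library could be left out. Of the alternatives run, the 2 members called higher became 0 at a q of 0.01, 5 at a q of 0.1 (where 12.1% of all tested rows were called higher), 1 with at least 1.5-fold, 1 with at least 5 FPKM, 0 after median-ratio scaling, 1 after trend removal and 1 when the trend was fitted at 1 FPKM or more. The 0 members called lower became 1 under both trend fits. Over all tested rows, 1626 higher and 584 lower became 901 and 307 at a q of 0.01, 618 and 1087 after scaling, 210 and 163 after trend removal, and 188 and 151 with the trend fitted at 1 FPKM or more. That last fit, chosen after seeing the data, gave 0.70 for Ccnd2 (q = 0.030), -0.61 for Mycn (q = 0.022) and -0.0024 for E2f4. The members' median log2 fold of 0.21 became 0.0034 after trend removal.

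No member was called under the scaling, and only Ccnd2 and Mycn under the trend removal, but several uncalled folds changed sign. After scaling these were Ccnd1 (-0.010), Cdk2 (-0.13), Cdc25a (-0.086), E2f2 (-0.16), an Rb1 row (-0.020), Mcm6 (-0.021), Cdc6 (-0.081), Ccna2 (-0.16) and Ccnb1 (-0.17). After trend removal they were Ccnd3 (-0.011), Ccne1 (-0.12), Cdk2 (-0.14), Cdc25a (-0.073), Cdkn1b (0.13), Cdkn2a (-0.10), E2f1 (-0.050), E2f2 (-0.28), Rbl1 (0.10), Mcm2 (-0.10), Cdc25b (-0.11), Plk1 (-0.16), Aurka (-0.0030), Aurkb (-0.12) and Mad2l1 (0.36). The cause of the sign changes was not tested. The Mad2l1 value after trend removal rests on a transcript longer than its row. Depth is unknown here, and in simulated data changes of 0.5 in log2 were mostly missed after trend removal.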
